A study of Mus musculus with 4 samples.

Results

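The imprinted growth genes H19, Igf2, Igf2r, Dlk1, Meg3, Cdkn1c, Grb10, Peg3, Mest and Plagl1 were followed across 4 mouse RNA sequencing libraries. They were taken by symbol and are 10 of the 33783 named genes in the deposited isoform values. All 10 were found in both liver libraries, as 105 isoforms in the Adar1-/- labelled library and 106 in the Adar1-/- Mavs-/- labelled library. Plagl1 and Grb10 were also found in the embryo Adar1-/- labelled library, as 40 isoforms. The embryo Adar1-/- Mavs-/- labelled library held these genes with Dlk1 and Meg3, as 63 isoforms. The study sequenced total RNA from whole embryos at E11.5 (strain label C57B16/N) and from embryonic liver at E15.5 (strain label C57B6/J). In each tissue 1 library carried the genotype Adar1-/- and 1 the genotype Adar1-/-; Mavs-/-, so all 4 groups lack Adar1 by label and no library with intact Adar1 was analysed here. The labels do not say how the alleles were made or how many animals went into a library. Each group is 1 library, so the spread between animals is unknown, no p-value was computed, and what differs is a pair of libraries rather than of genotypes.

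Imprinted genes are expressed mainly from the copy inherited from 1 parent, under the control of DNA methylation set down in the germ line. Many act on fetal growth: IGF2 is a growth factor made in large amounts by fetal liver, and the receptor IGF2R carries it to the lysosome for breakdown. H19, a non-coding RNA, lies beside Igf2 and shares its enhancers, and Meg3, another non-coding RNA, lies beside Dlk1 in the same manner. H19, Igf2r, Meg3 and Cdkn1c are expressed from the maternal copy in most mouse tissues. Igf2, Dlk1, Peg3, Mest and Plagl1 are expressed from the paternal copy. Grb10 is maternal in most peripheral tissues and paternal in neurons, from different start sites. ADAR1 is an RNA-editing enzyme that acts on double-stranded RNA. MAVS relays the signal of sensors that recognise such RNA.

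Levels are FPKM (fragments mapped to an isoform, divided by its length and by the size of the library), summed over the isoforms of a gene. Bounds are the deposited confidence bounds combined over isoforms, and cover estimation within a library only. Differences are log2 ratios of FPKM plus 1, with the Adar1-/- Mavs-/- labelled library as numerator and multiplied first by a factor (0.995 in liver, 1.34 in embryo). In liver Adar, read first as a check of the labels, stood at 5.56 FPKM (bounds 5.28 to 5.84) in the Adar1-/- labelled library, where 0 of 8 reference isoforms were above 0. It stood at 4.11 FPKM (bounds 3.86 to 4.36) in the Adar1-/- Mavs-/- labelled library, where 3 of 8 reference isoforms were above 0. Mavs stood at 7.26 and 9.96 FPKM in the same order, higher in the library labelled as lacking it. The labels do not say which parts of the genes the alleles remove, so gene sums do not check them, and libraries are called by label throughout. The depth in reads is unknown. The deposited coverage at 1 FPKM, which grows with depth, was 8.58 and 7.13 in liver against 3.48 and 5.62 in embryos, with Adar1-/- first. The embryo values cover chromosomes 10 and 11 in both libraries, with chromosome 12 whole only in the Adar1-/- Mavs-/- labelled library.

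Promoters of Grb10 and Igf2 are shown, since Grb10 was read from a pair of annotated starts whose shares were compared, and Igf2, the growth factor of the set, from 1 start. RefSeq windows of GRCm38.p6 were available for 8 of the 10 genes, as 15 windows of 250 bases upstream of a start. Each is given 5′ to 3′ on the gene's strand, the minus strand, with GC boxes (GGGCGG or CCGCCC on either strand) in capitals. The first is upstream of the Grb10 start used by the longer reference isoform (chr11:12037421-12037670), the second of the downstream Grb10 start (chr11:12027972-12028221) and the third of the Igf2 start used in liver (chr7:142657497-142657746).
Grb10 upstream start: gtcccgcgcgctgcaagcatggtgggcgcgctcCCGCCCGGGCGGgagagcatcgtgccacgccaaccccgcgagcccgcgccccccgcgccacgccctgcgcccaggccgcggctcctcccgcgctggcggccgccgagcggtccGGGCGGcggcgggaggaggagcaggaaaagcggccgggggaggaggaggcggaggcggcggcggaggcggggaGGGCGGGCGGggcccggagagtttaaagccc
Grb10 downstream start: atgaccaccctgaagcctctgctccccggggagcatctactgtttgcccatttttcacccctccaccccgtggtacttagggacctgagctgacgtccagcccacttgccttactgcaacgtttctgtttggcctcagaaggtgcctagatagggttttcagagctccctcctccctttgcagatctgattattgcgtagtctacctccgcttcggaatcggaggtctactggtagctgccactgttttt
Igf2 start used in liver: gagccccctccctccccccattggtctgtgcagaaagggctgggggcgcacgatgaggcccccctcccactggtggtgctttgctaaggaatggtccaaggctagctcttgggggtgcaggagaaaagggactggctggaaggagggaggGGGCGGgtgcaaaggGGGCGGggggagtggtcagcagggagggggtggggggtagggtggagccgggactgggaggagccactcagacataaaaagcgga
The upstream Grb10 window held 5 GC boxes, counting overlapping ones, and 81.2% G or C. The downstream window held 0 GC boxes and 54.0% G or C, near the median of 52.4% over all windows. The Igf2 window held 2 GC boxes and 66.0% G or C. A GC box was in 8 of the 15 windows, beside 32.7% of all 32851 windows of this length. The Mest windows with starts at 30738050 and 30738053 nearly coincide and hold the same GC box, which was counted for each. The letters TATAAA or TTTATA were in 1 of the 15, a Meg3 window, beside 12.4% of all windows. GGGGCCCC, the core of the PLAGL1 motif, was in 1 window, that of Peg3, beside 0.889% of all. A match describes these letters and is not a binding site.

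H19 also holds the hairpin of miR-675 in an exon on its own strand, and its mature forms are shown because H19 was the highest of the genes. The seed, bases 2 to 8, is in capitals.
mmu-miR-675-5p: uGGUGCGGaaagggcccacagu
mmu-miR-675-3p: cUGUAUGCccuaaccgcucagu
The seeds differ. The hairpin Mir675 was listed at 0 in both liver libraries with too little data for an estimate, and so were Mir483 in Igf2, Mir335 in Mest and Mir770 in Meg3. Mature miRNAs were not measured.

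In fetal liver the 10 genes spanned a wide range of levels, and each stood lower in the Adar1-/- Mavs-/- labelled library (see the plot of liver levels). H19 led in both libraries, at place 48 among all genes in the Adar1-/- labelled library and place 60 in the other. Igf2 came second, at places 223 and 415. In the Adar1-/- labelled library the order then ran Dlk1, Grb10, Cdkn1c, Mest, Peg3, Igf2r, Meg3 and Plagl1. The bounds of Mest and Peg3 overlapped there, and those of Meg3 and Plagl1 lay side by side. Dlk1 stood below Grb10, Cdkn1c and Mest in the Adar1-/- Mavs-/- labelled library, where its bounds overlapped those of Mest, and those of Plagl1 and Meg3 overlapped as well. Plagl1 and Meg3, the lowest of the genes, were still above 68.8% and 68.4% of the genes of at least 1 FPKM in that library.

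**Figure D1:**
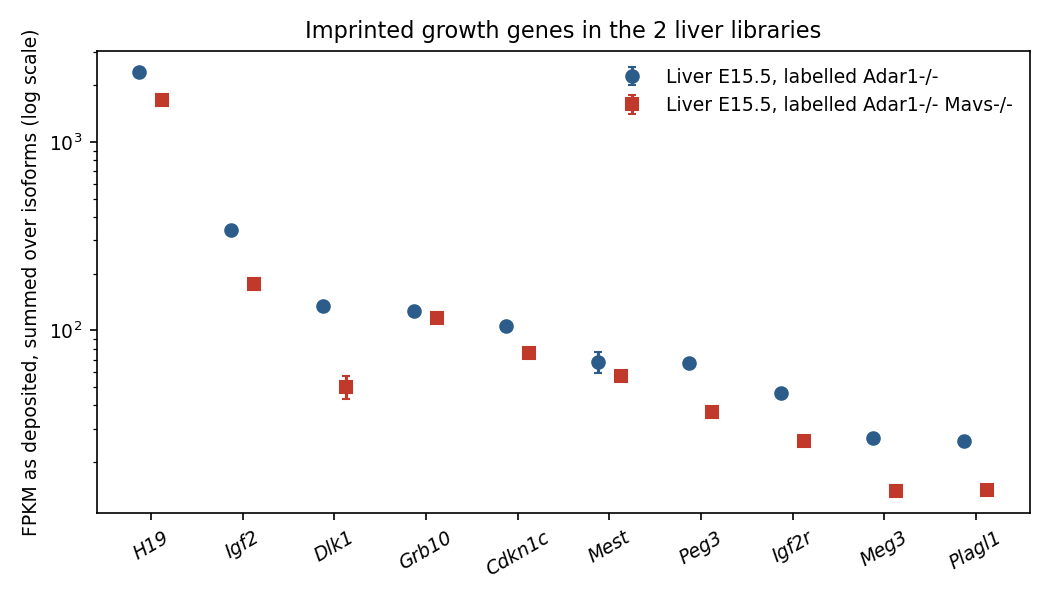
Summed FPKM of the 10 genes (log axis) in the liver Adar1-/- labelled libraries (circles) and Adar1-/- Mavs-/- (squares), 1 library each, with the combined deposited bounds as bars, many of them smaller than the points. H19 stands highest at 2345 and 1677 FPKM, the squares lie below the circles for all 10 genes, and the gap is widest for Dlk1, at 135 and 50.2 FPKM.

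The H19 and Igf2 pair lies on chromosome 7 of mm9. H19 (chr7:149761434-149764048, minus strand) stood at 2345 FPKM (bounds 2334 to 2357) in the Adar1-/- labelled library. It stood at 1677 FPKM (bounds 1587 to 1767) in the Adar1-/- Mavs-/- labelled library. The log2 ratio was -0.49 (-0.58 to -0.41 from the bounds), a 1.405-fold lower value. The longest of the 3 H19 isoforms above 0 stood at 1372 and 916 FPKM, and the 1853-base isoform at 273 and 233 FPKM with overlapping bounds. A short 817-base isoform at 700.0 and 529 FPKM was marked as having too little data, and the share it took of H19 was 29.9% and 31.5%. Igf2 (chr7:149836673-149852721, minus strand) stood at 339.0 FPKM (bounds 336 to 342) and 177 FPKM (bounds 175 to 179), a log2 ratio of -0.94. Of its 9 isoforms, 2 were above 0, and both begin at the start shown above. ENSMUST00000000033 held 71.7% of Igf2 in the Adar1-/- labelled library and 72.5% in the Adar1-/- Mavs-/- labelled library. The makeup of Igf2 by isoform was thus close to the same in both libraries while its level was 1.92-fold lower. Igf2 FPKM as a ratio of H19 FPKM was 0.145 and 0.106, with Adar1-/- first.

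Igf2r and Cdkn1c restrain growth. Igf2r (chr17:12875272-12962530, minus strand) stood at 46.6 FPKM (bounds 46.1 to 47.0) and 25.8 FPKM (bounds 25.5 to 26.2), a log2 ratio of -0.83. Its full-length isoform ENSMUST00000024599 stood at 42.2 and 21.5 FPKM. The rest came from an assembled, mostly unspliced isoform at 4.39 and 4.35 FPKM, which ran 36119 and 36111 bases beyond the start of Igf2r. The non-coding Airn lies antisense there. In the part within Igf2r, without a stated strand, the reads of Airn and of Igf2r introns cannot be told apart. The part beyond the start holds no intron of the reference Igf2r, yet it is counted in the Igf2r level. On reference isoforms alone the Igf2r log2 ratio was -0.96, and with each isoform weighted by its length it was -0.26. The weighted value includes the assembled isoform, 44586 and 63817 bases long, so it rests in part on the stretch beyond Igf2r. Igf2 FPKM exceeded Igf2r FPKM by a ratio of 7.28 in the Adar1-/- labelled library and 6.87 in the Adar1-/- Mavs-/- labelled library. Cdkn1c encodes the CDK inhibitor p57, which holds back the cell cycle. Cdkn1c (chr7:150644255-150646955, minus strand) stood at 106 FPKM (bounds 104 to 108) and 75.5 FPKM (bounds 73.4 to 77.7), a log2 ratio of -0.49. An assembled isoform of 1429 bases made up 57.2% of Cdkn1c in the Adar1-/- Mavs-/- labelled library, at 43.2 FPKM. On the reference isoforms alone the Cdkn1c log2 ratio was -1.52.

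Dlk1 and Meg3 lie on chromosome 12. Dlk1 encodes a membrane protein of the Notch ligand family that marks hepatoblasts and other progenitors. Dlk1 (chr12:110691033-110701546, plus strand) stood at 135 FPKM (bounds 131 to 139.8) in the Adar1-/- labelled library and 50.2 FPKM (bounds 43.1 to 57.3) in the Adar1-/- Mavs-/- labelled library. The log2 ratio was -1.42 (-1.68 to -1.19 from the bounds), a 2.68-fold lower value and the lowest of the 10. The main coding isoform ENSMUST00000109844 stood at 37.5 and 15.4 FPKM. A second isoform, ENSMUST00000109842, was at 21.1 FPKM in the Adar1-/- labelled library and listed at 0 in the other. A 483-base isoform marked as having too little data made up 56.8% and 62.6% of Dlk1, at 76.9 and 31.4 FPKM. ENSMUST00000109844 was also so marked in the Adar1-/- Mavs-/- labelled library, where marked isoforms made up 93.2% of Dlk1. It was not so marked in the Adar1-/- labelled library. Leaving out marked isoforms gave -3.77 for Dlk1. That value sets reference isoforms in the Adar1-/- labelled library against an assembled isoform in the other, so unlike isoforms are compared. Weighting by length gave -1.02. Meg3 (chr12:110779211-110809936, plus strand) stood at 26.99 FPKM (bounds 26.6 to 27.4) and 14.1 FPKM (bounds 13.9 to 14.2), a log2 ratio of -0.90. None of its reference isoforms was above 0 in any of the 3 libraries that list Meg3, and all of its value came from long assembled isoforms. In the Adar1-/- labelled library an isoform of Meg3 ran 114532 bases past the reference end, into the stretch that holds the neighbouring non-coding RNAs of the cluster, and in the Adar1-/- Mavs-/- labelled library it ran 10051 bases past. The Meg3 level therefore depends on how this stretch was assembled in each library. Dlk1 FPKM over Meg3 FPKM was 5.02 and 3.57 in the liver libraries and 9.52 in the embryo Adar1-/- Mavs-/- labelled library.

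Peg3, Mest, Plagl1 and Grb10 differed more among themselves. Peg3, a zinc finger protein, (chr7:6656603-6683132, minus strand) stood at 66.9 FPKM (bounds 66.3 to 67.6) and 37.1 FPKM (bounds 36.6 to 37.6), a log2 ratio of -0.84. Its long isoform ENSMUST00000051209 stood at 54.0 and 33.1 FPKM. The Peg3 log2 ratio was -0.46 when isoforms were weighted by length. Mest, a member of the alpha/beta hydrolase family, (chr6:30673547-30698455, plus strand) stood at 68.1 FPKM (bounds 59.6 to 76.5) and 57.0 FPKM (bounds 55.7 to 58.2), a log2 ratio of -0.26 (-0.46 to -0.04 from the bounds). Both Mest isoforms above 0 were marked as having too little data, and in the Adar1-/- labelled library their bounds were the widest of the 10 genes relative to the level. Plagl1, a zinc finger transcription factor, (chr10:12810497-12851500, plus strand) stood at 25.8 FPKM (bounds 24.99 to 26.6) and 14.2 FPKM (bounds 13.8 to 14.6), a log2 ratio of -0.82. Its full-length isoform ENSMUST00000121646 stood at 5.68 FPKM (bounds 5.16 to 6.20) and 5.97 FPKM (bounds 5.68 to 6.25), which overlap. A shorter isoform with a retired Ensembl identifier, ENSMUST00000068371, was at 8.62 FPKM in the Adar1-/- labelled library and listed at 0 in the other. On current reference isoforms alone the Plagl1 log2 ratio was 0.05, so its direction rests on which isoforms are counted. Grb10, an adaptor that dampens insulin and IGF receptor signalling, (chr11:11830511-11938686, minus strand) stood at 127 FPKM (bounds 126 to 129) and 117 FPKM (bounds 116 to 118), a log2 ratio of -0.13. It was the closest to 0 of the 10 and took the other sign, at 0.003, under upper quartile scaling.

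Among the 10 genes, 1 was at least 2-fold lower in liver, Dlk1, where 9.75% of the 13851 genes counted were so, and 0 were at least 2-fold higher, where 6.53% were. The 2-fold count is near the background and is not a result about these genes. All 10 were below 0, beside 58.0% of genes counted, and for all 10 the bounds of the libraries did not overlap after scaling, beside 42.9%. Their median log2 ratio was -0.83, and the median of all genes counted was -0.12. Dlk1 was lower than all but 4.49% of genes, and Igf2 and Meg3 than all but 10.9% and 11.7%. Igf2r, Peg3 and Plagl1 lay between 13.4% and 13.9%, H19 and Cdkn1c at 28.1% and 28.3%, Mest at 41.1% and Grb10 at 49.6%. The scaling sets where 0 lies: with a TPM factor the median of all genes was -0.38 and 75.4% of them were below 0, and with upper quartile scaling these were -0.01 and 50.8%.

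**Figure D2:**
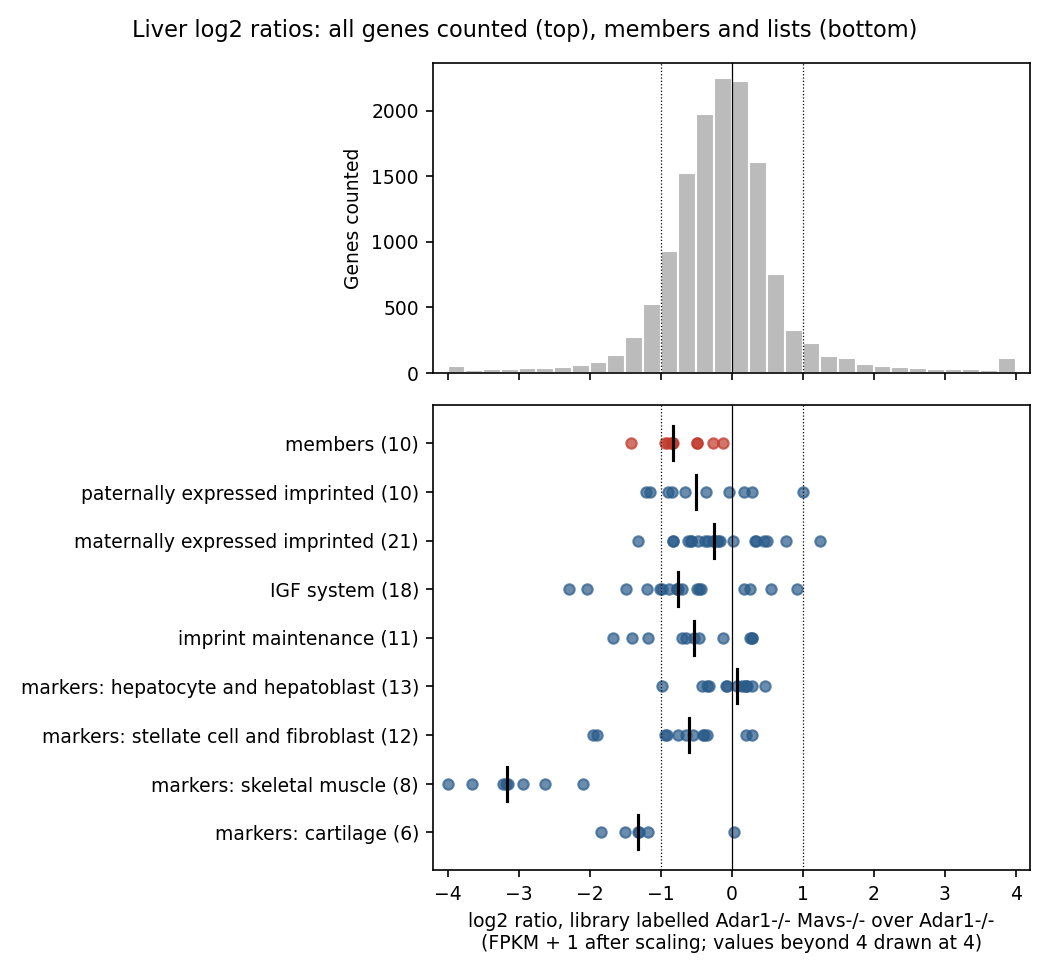
Top, the number of genes by liver log2 ratio for the 13851 genes counted, in bins of 0.25. Bottom, the log2 ratio of each of the 10 members (red) and of each gene of 8 lists (blue), with a black bar at the median and dotted lines at 2-fold; genes listed at 0 in a library are not drawn. The members all lie left of 0 with a median of -0.83, hepatocyte markers lie around 0 with a median of 0.08 (-0.24 with a TPM factor), and skeletal muscle markers lie far to the left.

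Markers of several cell types were read in the same liver libraries. Of all genes counted there, 9.75% were at least 2-fold lower and 6.53% at least 2-fold higher. Hepatocyte and hepatoblast markers, led by Alb and Afp, had a median log2 ratio of 0.08 over 13 genes, 0 of them 2-fold different, and the median was -0.24 with a TPM factor and -0.19 on isoforms of status OK. They summed to 14562 and 15366 FPKM, with none at 0. Skeletal muscle markers summed to 158 FPKM in the Adar1-/- labelled library and 10.4 FPKM in the Adar1-/- Mavs-/- labelled library. Of 12 muscle markers 8 were counted, all at least 2-fold lower, and their median was -3.16. Myl1, a myosin light chain, stood at 28.1 and 0.085 FPKM, and Mylpf, another, at 74.7 and 8.93 FPKM. Tnnc2 was listed at 0 in both libraries and Myod1 in the Adar1-/- Mavs-/- labelled library. Cartilage markers summed to 26.5 and 7.65 FPKM, with 5 of 6 counted at least 2-fold lower, a median of -1.32 (-0.51 with a pseudocount of 5), and Matn1 listed at 0 in the Adar1-/- Mavs-/- labelled library. Stellate cell and fibroblast markers summed to 384 and 225 FPKM with none at 0, 2 of 12 at least 2-fold lower and a median of -0.60. Endothelial markers had 1 of 8 at least 2-fold lower, near the share of all genes, a median of -0.41 and sums of 94.1 and 62.2 FPKM. Macrophage markers went the other way, with 3 of 8 at least 2-fold higher, a median of 0.70 and sums of 58.1 and 98.8 FPKM. Of these 3, Cd68 was listed at 0 and Vsig4 stood at 0.0086 FPKM in the Adar1-/- labelled library, and Adgre1 had a log2 ratio of 1.01. Without Cd68 the macrophage median was 0.69. Of the placenta and yolk sac markers 2 were counted, with a median of -0.17. Several of the 10 genes are also expressed in mesenchyme, muscle and cartilage of the embryo, and the part of those cells in the lower values was not tested. In such bulk RNA, fewer cells of a type and less RNA per cell cannot be told apart.

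The other imprinted genes were spread to both sides. Of 11 further paternally expressed genes counted, 8 were below 0, 3 at least 2-fold lower and 1 at least 2-fold higher, beside 58.0%, 9.75% and 6.53% of all genes counted. Their median log2 ratio was -0.65. Airn was 1 of the 3, at 6.12 FPKM in the Adar1-/- labelled library and listed at 0 in the Adar1-/- Mavs-/- labelled library. In both libraries an assembled isoform over its stretch was counted under Igf2r, at 4.39 and 4.35 FPKM. Without Airn the median was -0.51. Ndn stood at 5.79 and 1.95 FPKM (log2 ratio -1.21) and Nnat at 13.7 and 5.69 FPKM (-1.15). Peg10, a gene derived from a retrotransposon, stood at 18.2 and 9.41 FPKM (-0.89), Zdbf2 had a log2 ratio of -0.83, Snrpn -0.65 and Sgce -0.36. On reference isoforms alone Sgce was at 0.77, at 3.89 and 7.39 FPKM. Slc38a4, an amino acid transporter, was at 28.7 and 28.2 FPKM (-0.03), and Zrsr1 had a log2 ratio of 0.18. Rtl1, beside Dlk1, was at 6.52 and 8.23 FPKM (0.29), all from assembled isoforms. Inpp5f, at 3.46 and 7.998 FPKM (1.01), was the gene at least 2-fold higher.

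Of 21 further maternally expressed genes counted, 14 were below 0, 1 was at least 2-fold lower and 1 at least 2-fold higher, with a median of -0.24. Among the 21, Gnas, Trappc9, Blcap, Dcn, Cobl and Ddc are maternally expressed in some tissues or transcripts only. The shares near 2-fold are close to the 9.75% and 6.53% of all genes. Slc22a18, beside Cdkn1c, stood at 11.6 and 4.06 FPKM (-1.32), while its reference isoforms were listed at 0 and then at 0.410 FPKM. Gnas stood at 43.8 and 106 FPKM (1.25), and its reference isoforms at 39.1 FPKM and then listed at 0, the other direction. Phlda2, a growth-restraining gene of the Cdkn1c cluster, stood at 6.22 and 3.11 FPKM (-0.82), and Cd81, a tetraspanin of that cluster, at 55.2 and 37.1 FPKM (-0.57). Osbpl5 (-0.83), Trappc9 (-0.61), Blcap (-0.57), Tssc4 (-0.48), Ppp1r9a (-0.37), Ano1 (-0.33), Cobl (-0.26), Zim1 (-0.24), Ddc (-0.20), Dcn (-0.20) and Asb4 (-0.17) were the others below 0. Nap1l4 (0.02), Commd1 (0.33), Kcnq1 (0.35), Tspan32 (0.46), Ube3a (0.50) and Copg2 (0.76) were above it. No reference isoform of Kcnq1 or Tspan32 was above 0 in either library, so their values rest on other isoforms, whose strand is not stated. The reference isoforms of Copg2 were listed at 0 and then at 8.90 FPKM. On reference isoforms alone 3 more maternally expressed genes took the other direction: Nap1l4 was at -1.30, Ddc at 0.56, and Ube3a stood at 7.10 FPKM and was then listed at 0.

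Genes that act with IGF2 were read next. Of 18 genes of the IGF system counted, with Igf2 and Igf2r left out, 14 were below 0, 5 at least 2-fold lower and 0 at least 2-fold higher, beside 58.0%, 9.75% and 6.53% of all genes counted. Their median log2 ratio was -0.76. Igf1r, the receptor through which IGF2 signals, stood at 12.0 and 4.74 FPKM (-1.19), and the related Insr had a log2 ratio of -0.43. Igfbp1, a binding protein secreted by liver, stood at 47.2 and 10.8 FPKM (-2.04). Igfbp2 stood at 8.60 and 0.967 FPKM (-2.29), though its reference isoforms alone gave -0.14. Igfbp5 (-1.49), Igfbp4 (-0.97), Igfbp6 (-0.75), Igfbp3 (-0.46) and Igfals (-0.49), the acid-labile subunit of the circulating complex, were also below 0. The RNA-binding proteins Igf2bp1 (-1.02) and Igf2bp3 (-0.89), the receptor substrates Irs1 (-0.76) and Irs2 (-0.76), and Stat5b (-0.69) lay on the same side. Ghr (0.17), Lin28b (0.27), Igf2bp2 (0.56) and Igf1 (0.92) lay above 0. No reference isoform of Irs2 or Lin28b was above 0 in either library. On reference isoforms alone Igf2bp2 was at -1.09, and Ghr stood at 11.7 FPKM and was then listed at 0, both the other direction. Igf1 stood at 3.22 and 7.03 FPKM, far below Igf2 in either library.

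Related regulators gave mixed values. Of 12 other CDK inhibitors, G1 cyclins and partners counted, 1 was at least 2-fold lower and 0 at least 2-fold higher, near the shares of all genes, with a median of -0.18. The differences of largest size were those of Cdkn1a (-1.27), at 2.18 and 0.319 FPKM, Ccnd1 (-0.90), Cdk6 (-0.74) and Ccnd2 (-0.71). Of 11 genes that set or keep imprints, 3 were at least 2-fold lower and 0 at least 2-fold higher, with a median of -0.52, beside 9.75% lower and 6.53% higher over all genes. These were the DNA methyltransferase Dnmt3a (-1.67), at 11.2 and 2.86 FPKM, Arid4b (-1.40), and Trim28 (-1.18), the co-repressor recruited by ZFP57, at 185 and 81.2 FPKM. Dnmt3b was at -0.70, and at 0.07 on reference isoforms alone. In whole embryos Dnmt3a went the other way, at 23.5 and 31.6 FPKM as deposited, with the bounds apart. Its embryo log2 ratio was 0.82 after scaling, and 0.77 on reference isoforms alone. Methylation and parental origin were not measured, so these values do not show whether an imprint differed.

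Plagl1 and Grb10, the members on chromosomes 10 and 11, could be compared in embryos as well. In whole embryos Plagl1 stood at 34.3 FPKM (bounds 31.6 to 37.0) in the Adar1-/- labelled library and 10.8 FPKM (bounds 9.57 to 12.0) in the Adar1-/- Mavs-/- labelled library. After scaling its log2 ratio was -1.19 (-1.46 to -0.93 from the bounds). The full-length Plagl1 isoform stood at 4.69 and 1.74 FPKM here, and a 624-base isoform marked as having too little data at 19.5 and 7.34 FPKM. Grb10 stood at 156 FPKM (bounds 154 to 158) and 106 FPKM (bounds 102 to 110.3), and after scaling its log2 ratio was -0.13, as in liver. So 1 of the 2 was at least 2-fold lower, beside 9.77% of the 1915 genes counted, and 0 at least 2-fold higher, beside 6.42%. Both were below 0, beside 58.6%. The Grb10 value depended on the factor: it was 0.01 under upper quartile scaling and -1.06 with a TPM factor. Among the embryo markers Col1a1, a fibroblast collagen, stood at 77.9 and 22.7 FPKM (-1.33), but at -0.10 on its reference isoforms alone, and Lum, the other fibroblast marker there, was at -0.27. The muscle myosins Myh3 (-0.93) and Myh8 (-0.55) were below 0, and Sox9 of cartilage was at 0.32, or -0.16 on reference isoforms. The part of such cells in the Plagl1 value was not tested.

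**Figure D3:**
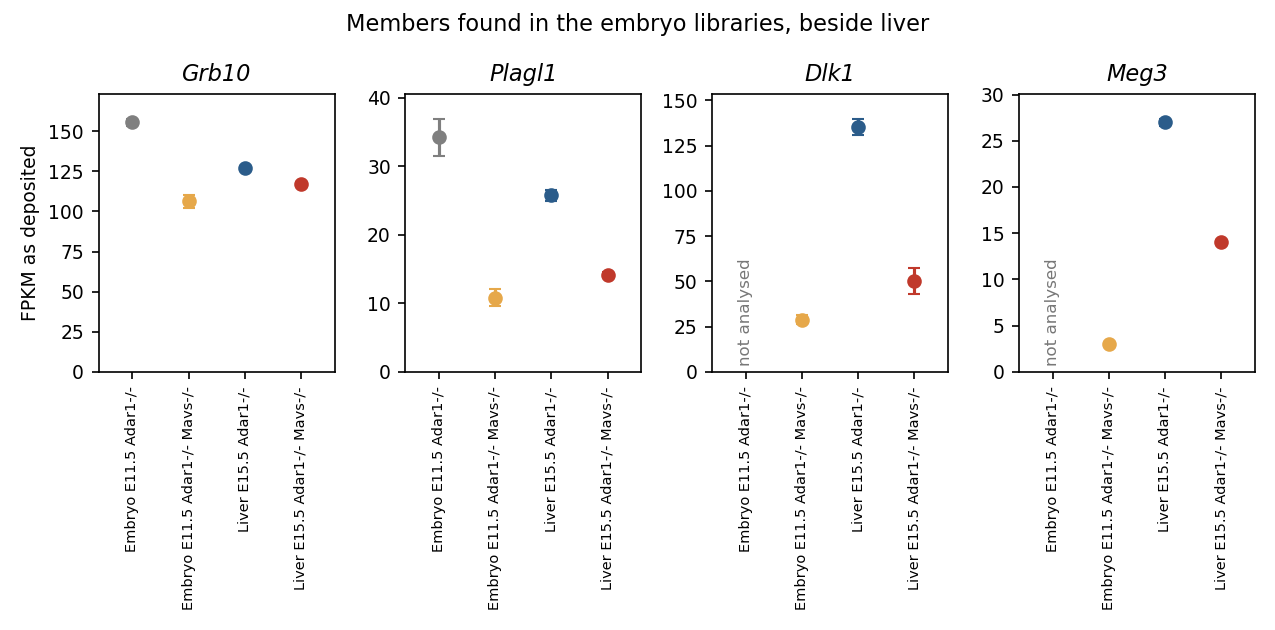
FPKM as deposited of Grb10, Plagl1, Dlk1 and Meg3 in each library, 1 library per group, with the combined deposited bounds as bars and a separate linear axis from 0 for each gene; Dlk1 and Meg3 were not analysed in the embryo Adar1-/- labelled library. Plagl1 is lower in the Adar1-/- Mavs-/- labelled library in both tissues, and Dlk1 and Meg3 are higher in liver than in the embryo library of the same genotype label.

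Between tissues of the same genotype label, tissue, age and strain label differ together. For the Adar1-/- labelled libraries, liver over embryo after scaling was 0.06 for Grb10 and -0.05 for Plagl1, and the bounds of Plagl1 overlapped. Among the Adar1-/- Mavs-/- labelled libraries, Meg3 was 1 of 4 at least 2-fold higher in liver, beside 29.5% of the 2668 genes counted. Meg3 stood at 3.02 FPKM in the embryo and 14.1 FPKM in liver (2.03), and Dlk1 at 28.8 and 50.2 FPKM (0.91). The same ratio was 0.27 for Grb10 and 0.49 for Plagl1.

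The shares of the Grb10 starts differed between the embryo libraries and were close in liver. The Grb10 reference isoforms above 0 begin 9430 bases apart, at the starts whose upstream sequences are shown above. In liver the downstream isoform ENSMUST00000109654 stood at 65.1 FPKM (bounds 64.2 to 66.1) and 62.3 FPKM (bounds 61.4 to 63.3), and the upstream isoform ENSMUST00000093321 at 54.6 and 48.4 FPKM. The upstream share of both was 45.6% in the Adar1-/- labelled library and 43.7% in the Adar1-/- Mavs-/- labelled library, so the liver libraries split Grb10 alike. In the embryo Adar1-/- labelled library the downstream isoform stood at 118 FPKM (bounds 117 to 120.2) and the upstream isoform at 37.3 FPKM (bounds 36.2 to 38.4), an upstream share of 24.0%. In the embryo Adar1-/- Mavs-/- labelled library they stood at 33.3 FPKM (bounds 31.0 to 35.6) and 47.2 FPKM (bounds 46.3 to 48.2), an upstream share of 58.6%. The downstream isoform was thus the larger in 3 libraries and the smaller in 1. That library also held an assembled isoform at the 3′ end of Grb10, at 25.8 FPKM, which overlaps both reference isoforms and runs 180 bases past their end. In the overlap it takes up reads that would otherwise be divided between them. How that division moved the share was not tested.

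**Figure D4:**
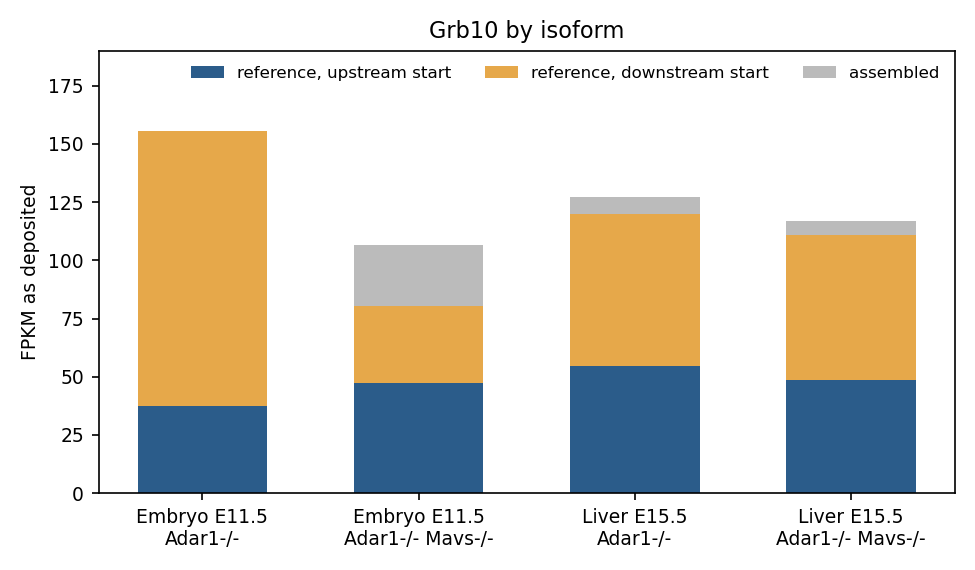
Grb10 FPKM as deposited, stacked by isoform, in each of the 4 libraries (1 per group, no error drawn): the reference isoform from the upstream start (blue), that from the downstream start (orange) and assembled isoforms (grey). The upstream share of the reference isoforms is 24.0% and 58.6% in embryos, and 45.6% and 43.7% in liver.

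Over 11 other ways of scaling, filtering and summing the liver values, H19, Igf2, Igf2r, Dlk1 and Peg3 stayed below 0 in all 11, as did Cdkn1c (see the plot of settings). Meg3 and Mest did so in the 10 that gave them a value. Grb10 and Plagl1 were below 0 in 10 of 11. The settings that changed only the pseudocount or the filter kept the factor and the gene sums. They could not change the sign of a gene, so these counts overstate how far the direction was tried.

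**Figure D5:**
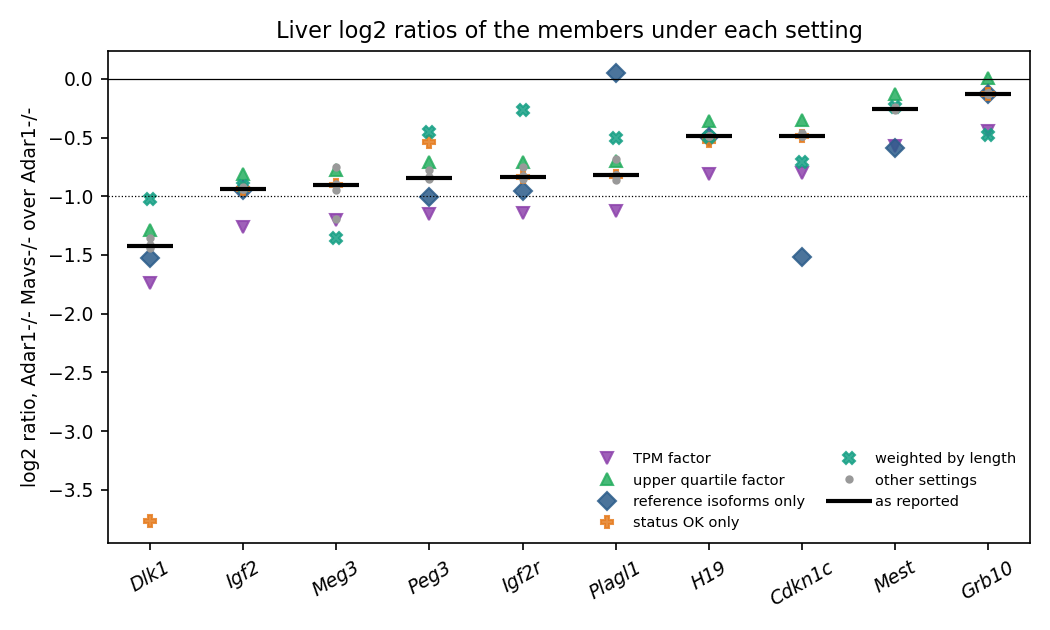
Liver log2 ratio of each gene as reported (black bars) and under 11 other settings (symbols), with 0 as a solid line and 2-fold lower as a dotted line. Dlk1 runs from -3.77 to -1.02 and stays beyond 2-fold, Igf2 runs from -1.26 to -0.81, and Plagl1 and Grb10 each reach the other side of 0 in 1 setting.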

How the data were processed

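Total RNA libraries, 1 per group, were made with Trizol and standard Illumina protocols, per the labels' protocols. The deposited isoform values are FPKM with lower and upper bounds, a status, a transcript length in bases and a coverage that was a fixed multiple of FPKM within a library, per the file headers. The submitters' processing notes name build mm9, TopHat 1.4.0 and Cufflinks 2.2.1. Whether libraries keep the strand is not stated. No counts were used.

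Isoforms took symbols from GENCODE M21 by Ensembl transcript identifier (86.7% to 90.2% matched), and other isoforms by best overlap within their Cufflinks gene. Coordinates on mm9 are the deposited ones. Transcript starts of that annotation, on GRCm38, matched promoter windows to isoforms within 50 bases, and its exons placed the hairpins in their host genes. FPKM was summed by symbol, and distances to the bounds were combined as the root of summed squares. A factor set the median log2 ratio of genes of at least 5 FPKM in both libraries to 0 (6889 genes in liver, 973 in embryo). Genes reaching 1 FPKM in one or both libraries were counted, the pseudocount was 1, and this scale understates differences of low genes. Genes with a log2 ratio of 1 or more, or -1 or less, were called 2-fold. The median distance to a bound was 4.36% to 7.26% of the value for genes of at least 5 FPKM. Genes listed at 0 may be failed estimates and got no ratio in the text. The scaling was tested on simulated data in which as many genes were raised as lowered. That test does not pose the unequal numbers of higher and lower genes found here. All members were named, with all counted genes of the imprinted and IGF lists and the 4 of largest difference in each other non-marker list. Erythroid markers are not reported here. Members and lists were chosen with earlier results of these data known. Alternatives changed the scaling, pseudocount, filter, isoforms and gene grouping. Python 3.11.15, numpy 2.4.6, pandas 2.3.3 and matplotlib 3.10.9 were used.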

Additional observations from a re-analysis of the deposited data

Results flagged for a closer look

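For 3 genes of the IGF system on chromosomes 10 and 11 the log2 ratio had opposite signs in embryo and liver, with the bounds apart in each tissue after scaling. Only the members and the imprinted and IGF lists were searched in this way, and Dnmt3a, given above, lay outside that search. As deposited, without the factor of 1.34, the embryo values of Igfbp4 were lower in the Adar1-/- Mavs-/- labelled library, as in liver, and the embryo bounds of Stat5b overlapped. With 1 library per group, the difference between tissues was not tested. Igf1, a growth factor, was at -1.07 in embryo (3.32 and 0.795 FPKM, Adar1-/- first) and 0.92 in liver (3.22 and 7.03 FPKM). Igfbp4, an IGF-binding protein, was at 0.15 in embryo after scaling (126 and 104.5 FPKM as deposited) and -0.97 in liver (63.3 and 31.8 FPKM), and on its reference isoforms alone both were below 0, at -0.63 and -2.43. Stat5b, which acts downstream of the growth hormone receptor, was at 0.56 in embryo (5.02 FPKM with bounds 4.17 to 5.87, and 5.89 FPKM with bounds 5.02 to 6.76, as deposited) and -0.69 in liver (10.8 and 6.32 FPKM).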

How the results depend on the processing

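No paired analysis was possible because each group has 1 library. In liver 1 of the 10 genes was at least 2-fold lower as reported, 6 with a TPM factor, 3 on reference isoforms, 2 over the whole Cufflinks gene and 2 weighted by length, a setting chosen after seeing the data. The number of all genes so called moved too, from 1350 of 13851 as reported to 2168 of 13851 with TPM. It was 1902 of 10856 on reference isoforms, 1560 of 15126 over the whole Cufflinks gene and 1268 of 13734 weighted by length. With pseudocounts of 0.1 and 5 it was 2112 and 419 of 13851, and with status OK only 1409 of 11443. For other paternally expressed genes, 3 were lower as reported, 5 with a pseudocount of 0.1 or the whole Cufflinks gene and 1 with a pseudocount of 5, and 1 was higher, against 0 with TPM, a pseudocount of 5, status OK only and length weighting. For maternally expressed genes, 1 was lower as reported, against 3 with TPM, 2 with a pseudocount of 0.1, 0 with one of 5 or length weighting, 4 on reference isoforms and 5 with status OK only, and 1 was higher, against 0 with TPM or length weighting and 2 with status OK only. In the IGF system 5 were lower, against 2 with a pseudocount of 5, and 0 higher, against 1 with upper quartile scaling or a pseudocount of 0.1 and 2 with status OK only. In embryo 1 of the 2 genes was at least 2-fold lower, against 2 with TPM and 0 on reference isoforms, and 2 were below 0, against 1 with upper quartile scaling. Of all embryo genes counted, 187 of 1915 were at least 2-fold lower as reported, 735 of 1915 with TPM and 224 of 1603 on reference isoforms. Of the embryo IGF genes 1 was lower, against 3 with TPM and 0 with upper quartile scaling, a pseudocount of 5 or length weighting. The other 119 recomputed counts were within 1.5 times of the reported ones, and the causes were not tested. Single liver log2 ratios ran from -0.81 to -0.36 for H19, -1.26 to -0.81 for Igf2, -1.14 to -0.26 for Igf2r, -1.35 to -0.75 for Meg3, -1.52 to -0.35 for Cdkn1c, -1.15 to -0.46 for Peg3, -0.59 to -0.13 for Mest, -0.48 to 0.003 for Grb10 and -1.12 to 0.05 for Plagl1. In embryo they ran from -1.06 to 0.01 for Grb10 and -2.05 to -0.98 for Plagl1.

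The share of higher among all 2-fold genes was 40.1% in liver, against 23.9% with TPM and 28.9% on reference isoforms, and 39.7% in embryo, against 20.4% as deposited and 7.08% with TPM. Genes below 0 made up 75.4% of liver genes with TPM and 50.8% with upper quartile scaling. The liver median of the paternally expressed list ran from -0.95 to -0.20, of the maternally expressed list from -0.60 to -0.12 and of the IGF system from -1 to -0.38. Among markers, it ran from -0.24 (TPM) to 0.21 for hepatocytes, -5.35 to -1.58 for muscle, -2.42 to -0.51 for cartilage and -0.99 to -0.44 for stellate cells. Short isoforms with too little data and long assembled isoforms limit the gene sums.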
